A study of Homo sapiens with 3 samples.

Results

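The interferon-induced antiviral effectors described here are IFI27, IFI6, IFI44, IFI44L, BST2, MX1, SAMD9, SAMD9L, IFI35 and RSAD2. They are 10 of the 19775 genes that the array's annotation names, and every probe set (the array's group of probes for a transcript) that it maps to exactly 1 of these symbols was taken, with no filter on expression. That gave 15 of the 54613 probe sets on the array. The members were chosen from measured values, as a group of effectors with large rises under 1 of the hairpins, so their difference between that hairpin and the control is a description and carries no test. The rule set no threshold, and 4 of the 10 members did not differ 2-fold. The arrays measured RNA of HCT116, an established human colorectal carcinoma line, 1 array per group. A lentivirus carried a scrambled short hairpin RNA (Scr_shRNA, the control), UHRF1 shRNA-2 (hairpin 2) or UHRF1 shRNA-5 (hairpin 5), and all cells, the control included, were collected after 6 days of puromycin selection. The design asked which transcripts depend on UHRF1, a protein that binds hemimethylated DNA and histone H3 and is needed to maintain DNA methylation.

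Values are log2 levels made by the authors with RMA, and differences are on the log2 scale. Each hairpin has a single array and both share the control array, so no difference between groups has a replicate check, and what belongs to a hairpin cannot be told apart from what belongs to its culture or array. The number of arrays limits the precision. UHRF1 itself read 8.54 in the control, 6.20 under hairpin 2 and 6.67 under hairpin 5, and was lower with both hairpins. Epithelial markers matched the label in part: 8 of 10 lay above the array's 75th percentile on the control array, with EPCAM at 10.23 and KRT18 at 12.26, whereas VIL1 read 3.13. Of 7 leukocyte markers measured, 0 lay above the 75th percentile on any array, and their differences with hairpin 2 ran from -0.18 to 0.09. Of 6 fibroblast and endothelial markers, 1 lay above it, the collagen chain COL1A1, at 5.82 in the control, 6.39 under hairpin 2 and 5.75 under hairpin 5, while COL1A2 and COL3A1 read 2.82 and 2.64 in the control; its part in the results was not tested. PTPRC, carried by nearly all leukocytes, read 2.51 on the control array and 2.55 with hairpin 2. CLEC4C, a marker of the plasmacytoid dendritic cells that make much interferon, read 2.42 and 2.46.

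Interferons are secreted proteins that cells release on sensing foreign nucleic acid. Type I and type III interferons bind receptors that switch on JAK kinases, and these activate STAT proteins that join IRF9 and bind the interferon-stimulated response element (ISRE) in promoters. The genes turned on in this way encode proteins that block steps of virus growth, from entry to budding. Epithelial cells, the origin of colorectal carcinoma, carry receptors for both types. The effectors below act at the last step of this chain.

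Promoters are shown for 7 members, 6 of which hold an ISRE core. SAMD9L, which lacks it, is shown beside its paralog. The 7 are the 3 members with the largest difference under hairpin 2 and a pair of adjacent gene couples. These couples are SAMD9 with SAMD9L and IFI44 with IFI44L. With hairpin 2, both SAMD9 probe sets read above the control and no SAMD9L probe set did. For IFI44, the difference was 1.60 on 214453_s_at and 0.00 on 214059_at, beside 0.28 for IFI44L. SAMD9L and IFI44L lay below the median of every array, where a level may be background, so a differing response of the partners is not shown. All 10 members matched the RefSeq promoter table (build GRCh38.p14), which gives 15 windows of 250 bases before to 50 bases after an annotated start, 4 members having several. Each line gives the 250 bases before the start of the first listed window, 5′ to 3′ on the gene's strand, with capitals marking the ISRE core on either strand.
IFI27 (chr14:94110486-94110735, plus strand): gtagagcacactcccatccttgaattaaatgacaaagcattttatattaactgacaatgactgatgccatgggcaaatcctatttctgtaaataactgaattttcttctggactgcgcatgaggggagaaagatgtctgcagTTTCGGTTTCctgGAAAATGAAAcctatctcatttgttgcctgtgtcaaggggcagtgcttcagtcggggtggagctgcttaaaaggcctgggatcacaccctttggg
IFI6 (chr1:27672193-27672442, minus strand): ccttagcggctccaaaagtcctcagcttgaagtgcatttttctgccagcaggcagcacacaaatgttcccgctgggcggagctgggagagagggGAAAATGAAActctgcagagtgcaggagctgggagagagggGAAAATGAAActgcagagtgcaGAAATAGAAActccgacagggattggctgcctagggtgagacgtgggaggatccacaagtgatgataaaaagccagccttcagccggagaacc
BST2 (chr19:17405631-17405880, minus strand): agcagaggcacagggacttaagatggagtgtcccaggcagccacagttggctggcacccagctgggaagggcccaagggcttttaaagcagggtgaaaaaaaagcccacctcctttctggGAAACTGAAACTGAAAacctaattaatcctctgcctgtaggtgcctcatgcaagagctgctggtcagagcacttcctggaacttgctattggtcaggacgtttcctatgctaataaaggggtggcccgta
SAMD9 (chr7:93117980-93118229, minus strand): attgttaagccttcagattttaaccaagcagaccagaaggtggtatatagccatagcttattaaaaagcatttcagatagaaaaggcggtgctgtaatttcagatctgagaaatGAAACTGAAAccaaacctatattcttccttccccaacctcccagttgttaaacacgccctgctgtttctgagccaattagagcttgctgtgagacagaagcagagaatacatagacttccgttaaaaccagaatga
SAMD9L (chr7:93148386-93148635, minus strand): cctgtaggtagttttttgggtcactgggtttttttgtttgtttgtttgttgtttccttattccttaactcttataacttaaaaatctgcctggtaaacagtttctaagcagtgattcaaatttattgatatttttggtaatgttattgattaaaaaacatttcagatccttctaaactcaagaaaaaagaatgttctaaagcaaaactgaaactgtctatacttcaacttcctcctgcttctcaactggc
IFI44 (chr1:78649539-78649788, plus strand): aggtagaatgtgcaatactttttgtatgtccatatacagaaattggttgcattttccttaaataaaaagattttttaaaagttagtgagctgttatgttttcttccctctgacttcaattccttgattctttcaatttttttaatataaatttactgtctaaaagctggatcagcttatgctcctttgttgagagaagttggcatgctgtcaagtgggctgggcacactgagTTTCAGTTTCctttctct
IFI44L (chr1:78620198-78620447, plus strand): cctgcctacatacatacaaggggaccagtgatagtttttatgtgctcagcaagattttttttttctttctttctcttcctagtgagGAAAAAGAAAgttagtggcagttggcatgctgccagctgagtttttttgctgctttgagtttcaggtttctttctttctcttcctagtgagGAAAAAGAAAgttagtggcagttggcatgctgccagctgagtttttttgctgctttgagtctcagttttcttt

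The ISRE core searched was 2 copies of GAAA with any 2 bases between them, on both strands. It was present in 1 or more windows of 8 of the 10 members (11 of 15 windows), and in 3.57% of all 35116 windows and 4.38% of the 27305 genes of the table. The members were chosen as interferon-induced genes, which made the core likely in them, so this gap is not read as a result. IFI6 held 3 cores, all on the gene's strand, at bases -156 to -147, -115 to -106 and -93 to -84 from its start. BST2 held 2 that overlap each other, at -130 to -121 and -124 to -115. IFI27 held 2 on opposite strands, at -108 to -99 and -95 to -86. In SAMD9 the core lay at -136 to -127, in IFI44 at -18 to -9 on the opposite strand, and in IFI44L at -164 to -155 and -73 to -64. MX1 held 1 core after its first listed start, at 12 to 21, and another in its last listed window, and RSAD2 held 1 in its second window.

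These letters were not in the windows of SAMD9L and IFI35. The core of the gamma-activated site (GAS), bound by STAT dimers, was searched as TTCNNNGAA, which reads the same on both strands. It was in windows of 4 members, IFI27, BST2, MX1 and IFI35, and in 9.38% of the genes of the table (7.66% of all windows). In IFI27 it overlapped both ISRE cores, and in BST2 1 of its 2 matches overlapped an ISRE core. The ISRE core was in 5 of the 6 members that were at least 2-fold higher with hairpin 2 and in 3 of the 4 that were not. A match describes the letters only and was not tested as a site.

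**Figure D1:**
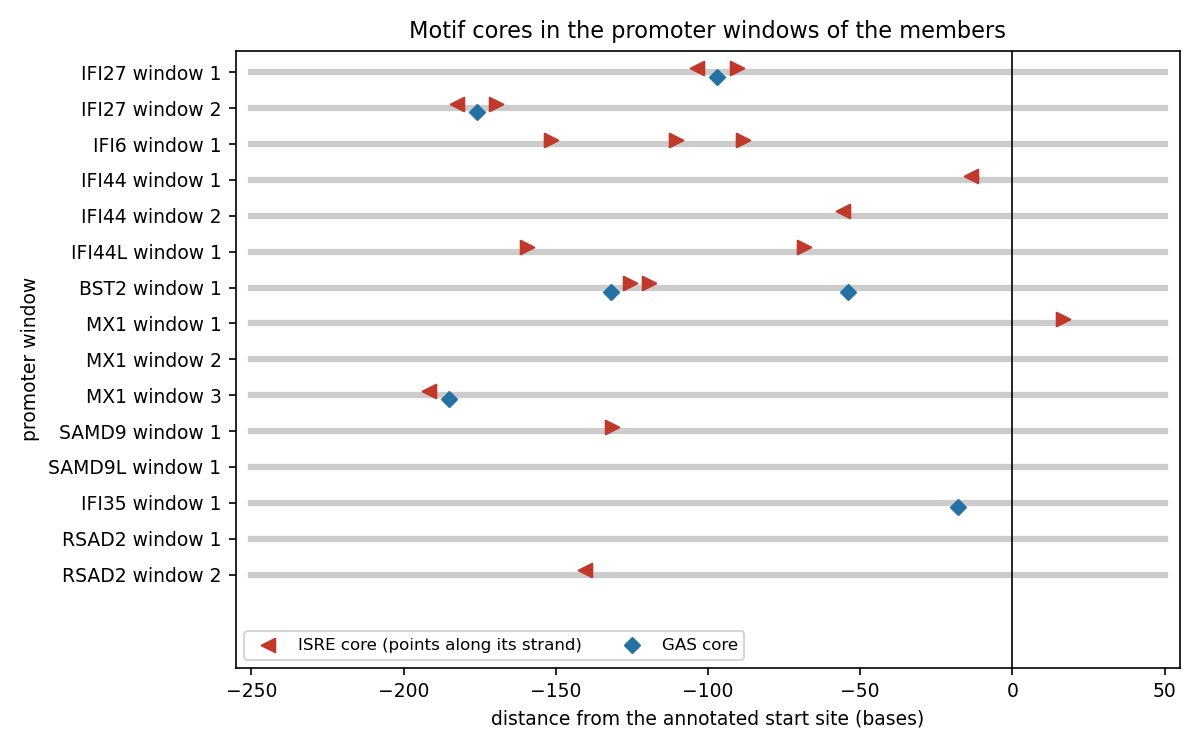
ISRE cores (red triangles, pointing along their strand) and GAS cores (blue diamonds) in the 15 promoter windows of the 10 members; the horizontal axis is the distance from the annotated start in bases. Of the 15 windows, 11 hold an ISRE core and 5 a GAS core, and SAMD9L has neither.

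IFI27 and IFI6 are small hydrophobic proteins of 1 family, found in membranes of mitochondria and the endoplasmic reticulum. IFI27 read 3.81 in the control, 10.58 under hairpin 2 and 4.04 under hairpin 5. The hairpin 2 array alone stood high, 109.1-fold above the control (6.77 on the log2 scale), while hairpin 5 was 1.17-fold above it. Among all genes this was the difference ranked 2 with hairpin 2, and the highest between the hairpins, 6.54. IFI6 read 5.90 in the control, 11.63 under hairpin 2 and 6.37 under hairpin 5. It was 53.11-fold above the control with hairpin 2 and 1.38-fold with hairpin 5, and unlike the members of low level below it lay above the array median on all 3 arrays.

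BST2, also called tetherin, holds budding virus particles at the cell surface. Its levels were 4.81 in the control, 9.31 under hairpin 2 and 5.45 under hairpin 5. The difference was 4.50 with hairpin 2 (22.55-fold) and 0.63 with hairpin 5 (1.55-fold), the highest value of any member with hairpin 5. BST2 is thus the 1 member past 1.5-fold with hairpin 5.

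SAMD9 and SAMD9L are adjacent paralogs that restrict poxviruses and slow cell growth. The SAMD9 probe set with the higher mean (228531_at) read 3.26 in the control, 7.03 under hairpin 2 and 3.17 under hairpin 5. Its other probe set (219691_at) read 2.57, 4.96 and 2.88 in the same order. Both were high with hairpin 2 only, by 3.77 and 2.39, and with hairpin 5 they lay on either side of the control, at -0.09 and 0.30. SAMD9L was read by 3 probe sets, and on none was hairpin 2 the highest array. The one with the highest mean (230036_at) read 2.92 in the control, 2.42 under hairpin 2 and 2.65 under hairpin 5, a difference of -0.50 with hairpin 2. The others differed by -0.16 and -0.09, and all 3 stayed below the median of each array, so their order says little.

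IFI44 and IFI44L, a second pair of adjacent paralogs, are cytosolic proteins whose antiviral action is less well understood. For IFI44, probe set 214453_s_at read 2.60 in the control, 4.20 under hairpin 2 and 2.67 under hairpin 5, which made hairpin 2 higher by 1.60 (3.03-fold over a control reading below the array median, where a level may be background). Probe set 214059_at read 2.70 in the control, 2.70 under hairpin 2 and 2.83 under hairpin 5, so the probe sets disagreed, and their mean difference with hairpin 2 was 0.80, under 2-fold. IFI44L read 2.47, 2.75 and 2.47, a difference of 0.28 with hairpin 2 and 0.00 with hairpin 5. It lay below the median of every array.

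IFI35 is a leucine zipper protein that binds NMI, another interferon-inducible protein. It read 6.42 in the control, 8.45 under hairpin 2 and 5.95 under hairpin 5. It was above the control with hairpin 2, by 2.04 (4.11-fold), and below it with hairpin 5, by a difference of -0.47. NMI read 5.90, 6.79 and 5.70, and so had the same order of arrays with a smaller difference, 0.89 with hairpin 2.

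MX1 and RSAD2 are among the best known effectors: MX1 is a dynamin-like GTPase that traps viral nucleocapsids, and RSAD2 (viperin) makes a nucleotide analog that ends viral RNA chains. MX1 read 3.0 in the control, 3.39 under hairpin 2 and 2.93 under hairpin 5, a difference of 0.39 with hairpin 2. Its adjacent paralog MX2 read 2.94, 2.90 and 3.13. RSAD2 differed by 0.07 on 1 probe set and -0.20 on the other with hairpin 2, with all readings between 2.40 and 2.67. Neither gene shared the large differences of IFI27, IFI6 and BST2. The file has no detection calls, and 7 of the 15 member probe sets lay below the median of all 3 arrays (2.98 to 3.04), so a level there may be background and cannot be read as absence.

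**Figure D2:**
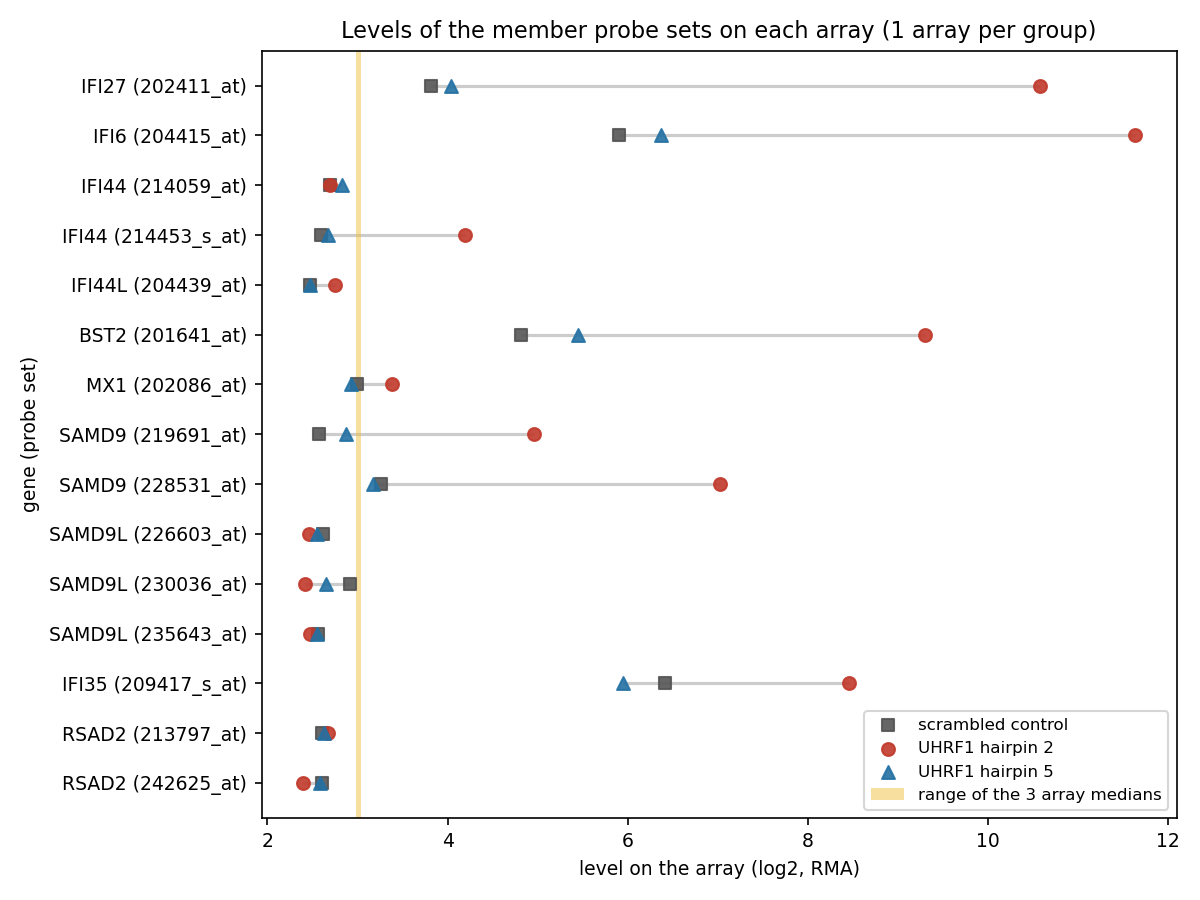
Level of each of the 15 member probe sets (log2, horizontal axis) on the scrambled control array (squares), the hairpin 2 array (circles) and the hairpin 5 array (triangles), with 1 array per group; the yellow band is the range of the array medians. IFI27, IFI6, BST2, SAMD9, IFI35 and 1 IFI44 probe set are at least 2-fold above the control with hairpin 2, and the rest lie near or below the array medians.

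With 1 probe set per gene, that of the highest mean, 6 of the 10 members exceeded the control by 2-fold or more under hairpin 2, where 0.728% of all genes did, and 0 were lower by as much, against 0.364%. The rule used that contrast, so nothing is read from these counts. The members' median was 1.82, that of all genes 0.00, and the members ran from -0.50 to 6.77. With hairpin 5, 0 of the 10 were 2-fold higher, against 0.152% of all genes, and 0 were 2-fold lower, against 1.17%. The members' median there was 0.01, with a range from -0.47 for IFI35 to 0.63 for BST2. Thus 5 members lay above the control, 4 below and IFI44L level with it. Of all 19775 genes, 9712 lay above and 9945 below, so the split is no result about the members. The sign of RSAD2 (0.02) turned under each rescaling of the arrays (-0.03 with median centring), and IFI44L then fell just below the control (-0.04 with median centring). The sign of SAMD9 turned under averaging of its probe sets (0.11). Directly between the hairpins, 6 members were at least 2-fold higher with hairpin 2, against 1.84% of all genes, and 0 higher with hairpin 5, against 0.121%; the median was 2.02. This contrast holds the same hairpin 2 array that chose the members, so nothing is read from these counts either. UHRF1 differed between the hairpins by -0.47 and was the lower with hairpin 2.

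A filter on the mean over the arrays (at or above the 40th percentile of genes, log2 3.28) would have kept 5 members. SAMD9 was kept through hairpin 2 alone, since its other readings lay under 3.28. For that reason counts are given over all 10.

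**Figure D3:**
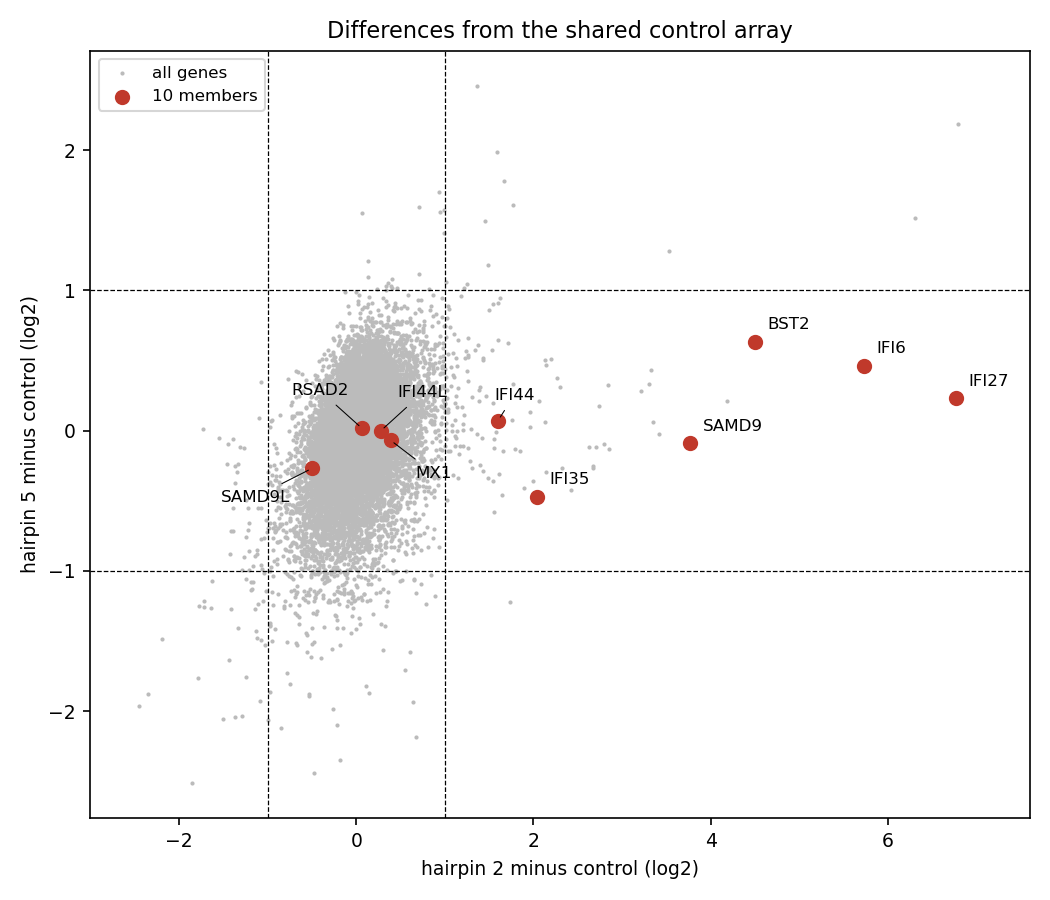
Difference from the control array with hairpin 2 (horizontal, log2) and hairpin 5 (vertical, log2) for 19775 genes (grey) and the 10 members (red); dashed lines mark 2-fold. The members spread from -0.50 to 6.77 along the horizontal axis and stay between -0.47 and 0.63 on the vertical one; both axes share the control array.

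Other genes of the pathway were taken from lists chosen with earlier results of these data known, so their counts, here and below, are description only. Over all genes, 0.728% were 2-fold higher with hairpin 2 and 0.152% with hairpin 5. The shares 2-fold lower were 0.364% and 1.17%. Interferon ligands showed no large difference: of 18 genes measured, 0 were 2-fold from the control with either hairpin, and differences with hairpin 2 ran from -0.38 to 0.22. IFNB1, the type I interferon most cells make first, read 2.54 in the control, 2.64 under hairpin 2 and 2.42 under hairpin 5. The type III gene IFNL1 read 3.10, 3.14 and 3.16. Near these levels an array may miss low transcripts.

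Of 15 receptor and JAK-STAT genes, 2 were 2-fold higher with hairpin 2, IRF9, the DNA-binding partner of the STAT complex (2.67), and USP18, which dampens receptor signalling (1.30). IRF9 read 6.22 in the control, 8.88 under hairpin 2 and 5.95 under hairpin 5. The receptor chains IFNAR1 and IFNAR2 differed by 0.12 and 0.24 with hairpin 2, and the kinase JAK1 by -0.54. Among 7 IRF factors, IRF7, which amplifies interferon production, was the 1 past 2-fold with hairpin 2 (2.32), at -0.27 with hairpin 5. Of 19 nucleic acid sensors and adaptors, 4 were past 2-fold with hairpin 2. They were IFIH1 (3.42) and RIGI (2.30), which sense double-stranded and uncapped RNA, the RNA-activated kinase EIF2AK2 (1.85), and the adaptor MYD88 (1.24). With hairpin 5 their differences were -0.02, 0.31, -0.14 and 0.57, and 0 genes of these 3 lists reached 2-fold.

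Downstream, 5 of 8 genes of the IFIT and IFITM families were 2-fold higher with hairpin 2 and 2 of 8 with hairpin 5. IFIT1 differed by 6.79 and 2.19 and IFITM1 by 6.31 and 1.51, values that no member matched with hairpin 5. IFIT3 differed by 4.18 and 0.21. In the OAS family, 3 of 4 genes were past 2-fold with hairpin 2 and 0 with hairpin 5. OASL stood at 3.33 and 0.43, OAS1 at 3.30 and 0.34 and OAS3 at 2.80 and -0.10. OAS2 differed by 0.06 with hairpin 2.

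Of 60 other interferon-stimulated genes, 18 were 2-fold higher with hairpin 2 and 0 lower. PARP9, an ADP-ribosyltransferase family member, differed by 3.21 with hairpin 2, the ubiquitin-like modifier ISG15 by 2.74, and the nuclear body protein SP110 by 2.70. With hairpin 5, 0 were 2-fold higher and 1 lower, the exonuclease ISG20 (-1.24), and the apolipoprotein APOL2 was 0.92 higher. These 3 downstream lists together held 26 of 72 genes past 2-fold with hairpin 2 and 2 of 72 with hairpin 5, with medians of 0.77 and 0.04. The share past 2-fold with hairpin 2 was thus 60.0% of the members and 36.1% of these lists; the members were picked for size, so the shares are not compared.

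**Figure D4:**
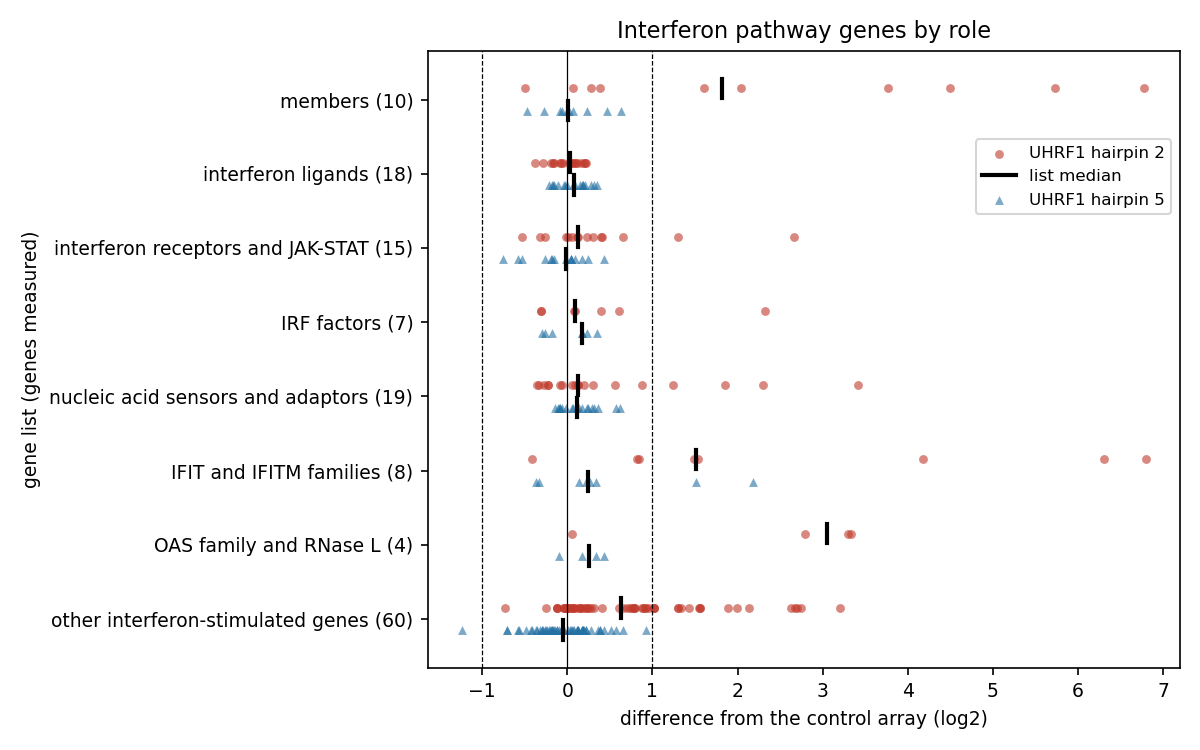
Differences from the control array (log2, horizontal axis) with hairpin 2 (red circles) and hairpin 5 (blue triangles) for the members and for pathway genes by role, 1 point per gene; black bars are list medians and dashed lines mark 2-fold. With hairpin 2 the member median is 1.82 and that of the ligands 0.03, and with hairpin 5 the list medians drawn lie between -0.05 and 0.25.

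With the hairpins taken as 2 samples of UHRF1 depletion against the control, limma's fit over all genes called 0 of 19775 genes at an adjusted p of 0.05 (0.0%), and 533 had an unadjusted p under 0.05. UHRF1 itself differed by -2.11 and did not pass (limma adjusted p = 1), so the lack of calls says nothing about the effectors or their pathway. Of the 133 pathway genes measured outside the members, 2 had an unadjusted p under 0.05, with 0 of them higher; with an intensity trend these were 8 with 7 higher, so no direction is read from them. The fit has 1 residual degree of freedom per gene and takes its spread from the difference between the hairpins.

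Genes beside the members were also measured. The nearest protein-coding genes measured on either side, in the order of the RefSeq annotation, gave 16 genes that are no members. With hairpin 2, 0 of these were 2-fold higher, where 0.728% of all genes were, and 0 were 2-fold lower, so the count is near the background and is no result about the neighbours. They ran from -0.20 to 0.91. IFI27 lies between its paralogs IFI27L1 and IFI27L2, which differed by -0.08 and 0.32. The highest was CMPK2, an interferon-inducible mitochondrial nucleotide kinase beside RSAD2, which read 2.89, 3.80 and 2.56 on the control, hairpin 2 and hairpin 5 arrays. With hairpin 5, 1 neighbour was 2-fold higher, against 0.152% of all genes, the cell cycle kinase CDK6 beside SAMD9 (1.21). OAS2, CMPK2, CDK6 and the cell type markers given by name fall outside the naming rule and were named after their values were seen.

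The genes outside the members whose pair of differences lay nearest to the members' median (1.82 with hairpin 2 and 0.01 with hairpin 5, straight-line distance over 2 differences that share the control) were LAMB1, HSH2D, GJA1, EIF2AK2, ACSL5 and PKIB. Their distances ran from 0.09 for the laminin chain LAMB1 (1.76 and 0.07) to 0.23 for PKIB (1.65 and -0.14), a protein kinase A inhibitor. The gap junction gene GJA1 stood at 1.96 and 0.03, the fatty acid ligase ACSL5 at 1.97 and 0.14, and the adaptor HSH2D at 1.79 and -0.13. Of the 6, EIF2AK2 was the 1 on the pathway lists. The members ran from -0.50 to 6.77 with hairpin 2, so the 6 genes lie near the median and not near the members as a set. With the probe sets of a gene averaged, the members' hairpin 2 median was 1.42, and the nearest genes were not sought again.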

How the data were processed

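Each of 3 arrays gave biotin-labelled cRNA signals for 54613 probe sets. The deposited values are the authors' log2 levels, from RMA in Affymetrix Expression Console per the submitters' processing notes. Versions and settings are not given in the sources used here, and the range of values gave the log base. Centring is not stated, and there are no detection calls. Names came from the platform annotation: 41091 probe sets had 1 gene, 1801 several and 11721 none; 41037 matched a RefSeq table (GRCh38.p14) by gene identifier, which changed 0 symbols. The probe set of highest mean stood for a gene. Groups followed the hairpin label. Differences are plain subtractions with no test. The hairpins were pooled with limma 3.58.1 (R 4.3.3, lmFit, eBayes, two-sided, Benjamini-Hochberg over all genes). A check on simulated data set a condition on the size of its differences. Its calls were counted there with no condition set on them, and are not given. Promoter windows are RefSeq's.

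The members and lists were chosen with earlier results of these data known. Named genes were the members, UHRF1, any ligand, receptor, IRF or sensor gene, the 3 highest with hairpin 2 and the 2 furthest with hairpin 5 of every other list, and the 6 nearest the members' median. Identity between paralogous proteins, a planned item, was not analysed here, and some listed genes, among them members of the STAT family, were not analysed here. Alternatives were the mean over probe sets, no probe sets ending in _x_at, median centring, quantile normalization, cyclic loess, the expression filter, 1.5-fold and 3-fold thresholds, other eBayes settings, an adjusted p of 0.1 and a shorter ISRE core.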

Additional observations from a re-analysis of the deposited data

Results flagged for a closer look

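For SAMD9, IFI35 and MX1 the hairpin 2 array lay above the control and the hairpin 5 array below it, with 1 array each. Hairpin 2 minus hairpin 5 was 3.86 for SAMD9 (3.77 and -0.09 against the control), 2.51 for IFI35 (2.04 and -0.47) and 0.46 for MX1 (0.39 and -0.07). The difference between hairpins was not tested, and the other SAMD9 probe set lay 0.30 above the control with hairpin 5. For SAMD9 and MX1 the hairpin 5 difference was smaller than the spread of 0.265 defined below, so its side of the control is not read.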

How the results depend on the processing

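Of 268 recomputed values, 253 moved by less than the spread used here or, for counts, by no more than 1.5 times. No value changed sign past 2-fold. The spread was 0.265, the SD over all genes of the difference between the hairpin arrays, divided by the square root of 2. With probe sets of a gene averaged, the members' median became 1.42 with hairpin 2 and 1.60 between the hairpins, and that of the downstream lists between the hairpins 0.52. SAMD9 then stood at 3.08 with hairpin 2 and IFI44 at 0.80. The expression filter kept 5 members, with medians of 4.50 with hairpin 2 and 3.86 between the hairpins, and raised the downstream lists to 1.15 between the hairpins, since fewer genes of low level were counted. At 1.5-fold, 1 member was higher with hairpin 5, and 41 and 4 downstream genes were higher with hairpin 2 and hairpin 5; at 3-fold, 14 and 1 were. The lack of limma calls under each setting run is no sign of stability, because UHRF1 passed in none. No paired analysis was possible because each group holds 1 array.

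Low signal limits IFI44L, SAMD9L, RSAD2 and MX1, whose probe sets lie near or below the array medians, and IFI44, whose only reading above the median is that of 1 probe set with hairpin 2.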

Other observations

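Among the interferon-stimulated genes of the 3 downstream lists, 23 of those at least 2-fold higher with hairpin 2 had a promoter window, and 16 of these held the ISRE core (69.6%). Of the 28 with a window that were under 2-fold, 19 held it (67.9%). For the shorter core GAAANNGAA the counts were 16 of 23 and 20 of 28. Of the 144 genes at least 2-fold higher with hairpin 2, 6 were members, which were picked for this rise, and 33 were on another pathway list. These 33 were 24.8% of the 133 list genes measured, where 0.728% of all genes were as high. The members and lists were chosen with earlier results of these data known, so nothing is read from these counts.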
